A study of Mus musculus with 12 samples.

Results

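Whole-liver messenger RNA was compared at day 9 between mice given small interfering RNA (siRNA) against Eif3m and mice given a control siRNA. The comparison holds 6 of the 12 libraries of the series, 3 from the livers labelled d9.Eif3m and 3 from those labelled d9.cont, and the other 6 libraries are livers of the same treatments at day 13. All mice were of the inbred strain FVB/N and 6 to 8 weeks old when dosed. Both groups received siRNA packed in lipid nanoparticles (LNP), which deliver RNA mainly to the liver, given by tail vein. The dose was 0.5 mg/kg, injected 1 time in 5 days. The control siRNA is given as luciferase, called scrambled in the protocol, and no group without nanoparticles is described in the labels. The siRNA itself is not tied to a cell type, and RNA was taken from ground liver, so every cell of the organ contributed. The labels number the libraries as replicates but do not tie them to individual mice. The p-values here therefore describe only how these libraries vary, and part of that variation may be technical.

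Eif3m encodes a subunit of eukaryotic initiation factor 3 (eIF3), the multi-subunit complex that sits on the small ribosomal subunit and brings it to messenger RNA at the start of translation. Cells answer disturbed protein synthesis through several known programs. Free ribosomal proteins can stabilise the tumour suppressor p53 by binding its ubiquitin ligase Mdm2, and kinases acting on the initiation factor eIF2 start the integrated stress response, carried by the transcription factors ATF4, ATF5 and CHOP. The liver is a tissue of heavy secretion and metabolism, and its bulk RNA comes mostly from hepatocytes, with a smaller part from Kupffer cells (resident macrophages), endothelial cells and stellate cells.

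The 6 libraries held 38783564 to 54538581 counts, and 14817 genes passed the filter on low counts. Values are counts scaled to a common library size (CPM, with TMM factors), and fold changes are siRNA over control on the log2 scale with their standard error (SE). A change given as a single number is that log2 fold change. A gene is called when its adjusted p was under 0.05 in edgeR's quasi-likelihood test of these 6 libraries alone. The hepatocyte markers Alb (albumin), Ttr (transthyretin) and Apoa1 (apolipoprotein A1) were abundant in all 6 libraries, with Alb at 90698, 88596 and 96404 CPM in the controls and 70953, 65678 and 72876 CPM in the siRNA livers. Xist, the RNA of the inactive X chromosome, had 5541 to 25081 counts per library, while the Y-linked transcripts Ddx3y, Eif2s3y and Uty had 0 counts and Kdm5d at most 2. On principal component 1 (46.5% of the variance) the 3 siRNA libraries lay between −34.4 and −27.9 and the 3 controls between 24.8 and 37.0. The controls were spread further along the second component, with 21.3% of the variance, from −40.2 to 29.1, against −12.8 to 6.09 for the siRNA libraries. Over all genes the median standard deviation of log2 CPM was 0.152 for control and 0.134 for siRNA livers.

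The targeted transcript was reduced in every treated liver. Eif3m (ENSMUSG00000027170) lies on the minus strand at chr2:104999656-105017080 of mm10. Its level was 46.0, 45.1 and 46.8 CPM in the controls and 5.02, 4.90 and 4.78 CPM in the siRNA livers, so the groups were far apart and the siRNA livers kept 10.7% of the control mean (log2 fold change −3.23, SE 0.0771, adjusted p = 1.96e-07). A two-sided exact permutation test of the 3 libraries against 3 gave p = 0.1, the smallest value this design allows. Its exons overlap those of Ccdc73, and the counting behind the deposited values could divide reads between them.

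Most transcripts of the other eIF3 subunits rose. Among the 13 tested, 9 rose and 0 fell, against 11.4% of all 14817 genes called higher and 11.6% called lower, and the list median was 0.25. Eif3a, the scaffold of the complex, went from 141 ± 10.1 to 201 ± 14.6 CPM (SD, n = 3; log2 fold change 0.52, SE 0.0896, adjusted p = 0.00511). Eif3c, another core subunit, stood at 133, 132 and 132 CPM in the controls and 171, 210.1 and 183 CPM in the siRNA livers, with no overlap between the groups. Eif3b and Eif3g, which bind each other near the entry channel for messenger RNA, changed by 0.37 and 0.46. Eif3e rose by 0.31. Eif3d, Eif3f and Eif3h, at 0.24, 0.25 and 0.23, were called here but lost the call in 11, 8 and 10 of the 14 alternatives, while Eif3i, Eif3k and Eif3l were at 0.16, 0.17 and 0.11 and were not called. Of the close copies Eif3j1 and Eif3j2, which can share reads, Eif3j2 rose by 0.50, whereas Eif3j1 was at 6.46, 6.01 and 6.05 CPM in the controls and 5.79, 5.40 and 5.77 CPM in the siRNA livers, every treated library below every control, and was not called (−0.13, adjusted p = 0.411). Rises among eIF3 subunits numbered 4 with the spread over all 12 libraries and 5 without siRNA replicate 3.

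Across the genome of expressed genes, 1687 rose and 1725 fell in the siRNA livers, together 3412 of 14817 (23.0%). Most changes were modest. The median absolute log2 fold change of called genes was 0.51, and 262 rises and 237 falls reached 2-fold, of which 62 and 49 reached 4-fold. Among all genes tested 42.5% had no overlap between the 3 siRNA and 3 control libraries, and of the 3412 called genes 3406 had none.

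**Figure D1:**
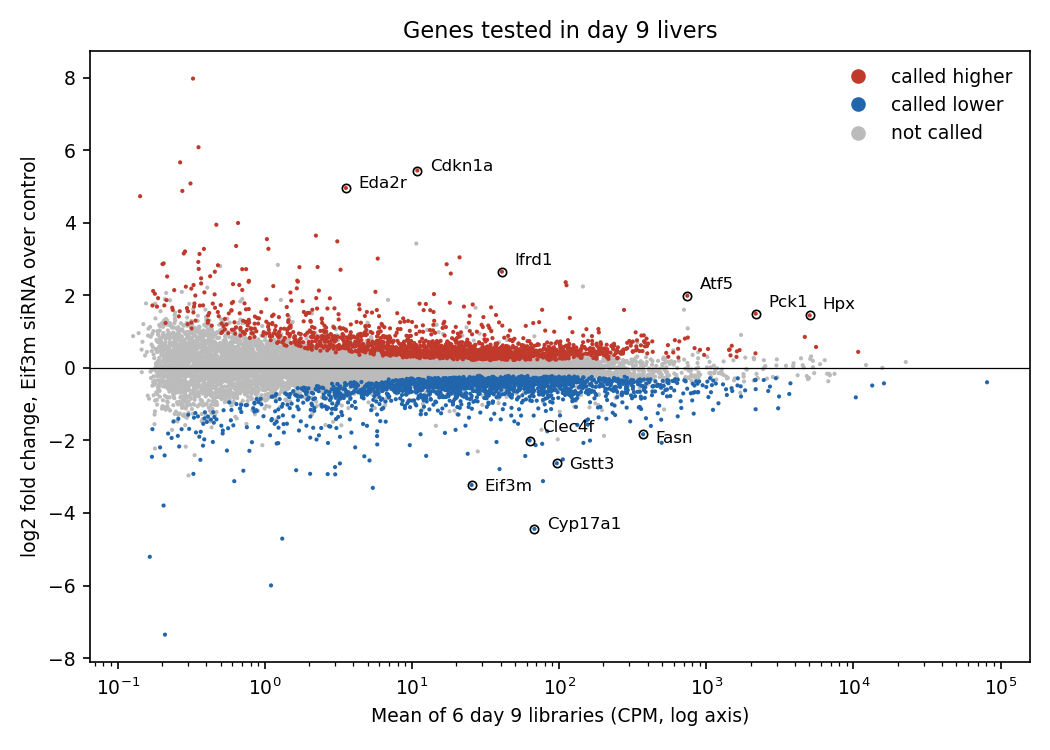
Log2 fold change of Eif3m siRNA over control at day 9 (vertical axis) against the mean of the 6 libraries in CPM (horizontal, log axis) for the 14817 genes tested, 1 point per gene. The 1687 genes called higher are red, the 1725 called lower blue, and 11 genes are ringed, with Cdkn1a highest among them at 5.44 and Cyp17a1 lowest at −4.44.

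The largest rises, counting genes whose mean reached 5 CPM and whose groups were separate, began with Cdkn1a, the cell cycle inhibitor p21. They went on with Arhgef2, an activator of the small GTPase RhoA (from 4.55 ± 0.345 to 37.5 ± 13.4 CPM, SD, n = 3; adjusted p = 0.00116). Dnaic1, an axonemal dynein chain, went from 1.28 ± 0.119 to 10.4 ± 1.74 CPM (SD, n = 3), and its exons overlap those of Enho, which also rose. Igfbp1, a liver-secreted protein that binds insulin-like growth factors, was at 5.07, 3.71 and 3.76 CPM in the controls and 31.9, 31.2 and 27.5 CPM in the siRNA livers (log2 fold change 2.86, SE 0.134, adjusted p = 1.32e-05). Ifrd1, a transcriptional coregulator, had the smallest adjusted p after Eif3m. It stood at 10.6, 11.4 and 11.6 CPM in the controls and 71.2, 68.2 and 72.0 CPM in the siRNA livers (log2 fold change 2.65, SE 0.0758, adjusted p = 4.86e-07). Slc25a33, a mitochondrial carrier of pyrimidine nucleotides, rose from 11.8 ± 1.67 to 39.8 ± 2.21 CPM, and Serpina7, the thyroxine-binding globulin, from 8.06 ± 1.72 to 28.1 ± 5.85 CPM (SD, n = 3). Mup21, a major urinary protein whose counts could be shared with its near-identical relatives, rose by 2.04. Prok1 and Gadd45g, also in this group at 1.76 and 2.10, passed the threshold more narrowly, with adjusted p = 0.0411 and 0.0448.

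The 15 largest falls, by the same rule, include Eif3m itself. Cyp17a1, a steroid hydroxylase and the largest fall, stood at 64.1, 121 and 205 CPM in the controls and 3.39, 9.97 and 4.49 CPM in the siRNA livers, so that the controls themselves spanned a wide range but no treated liver reached them. Pnpla3, a lipid droplet hydrolase induced by feeding, went from 9.84 ± 5.67 to 0.985 ± 0.522 CPM (SD, n = 3; log2 fold change −3.31, SE 0.579, adjusted p = 0.0138). Hamp2, the second hepcidin gene, went from 139 ± 45.0 to 16.0 ± 3.12 CPM, while Ugt1a5, a glucuronosyltransferase isoform that shares exons with its neighbours in the family, went from 68.7 ± 20.0 to 9.95 ± 2.59 CPM (SD, n = 3). Acacb, the mitochondrial acetyl-CoA carboxylase, and Aacs, which activates acetoacetate for lipid synthesis, changed by −2.43 and −2.13. Dct, known as a melanin enzyme, stood at 18.8, 20.9 and 23.4 CPM in the controls and 5.00, 2.27 and 4.51 CPM in the siRNA livers, low in all treated livers. Cyp3a16, a cytochrome P450 with close relatives that could share its counts, stood at 104, 122 and 315 CPM in the controls and 31.3, 32.7 and 30.1 CPM in the siRNA livers (adjusted p = 0.0232), with control replicate 3 far above the other controls. Nat8f7, Orm3, Cnmd and Depp1 were at −2.55, −2.13, −2.11 and −2.09, and the calls of Orm3 and Depp1 were each lost in 6 of 14 alternatives. Gstt3 and Cyp2b10, the remaining members, are given with the detoxification genes.

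**Figure D2:**
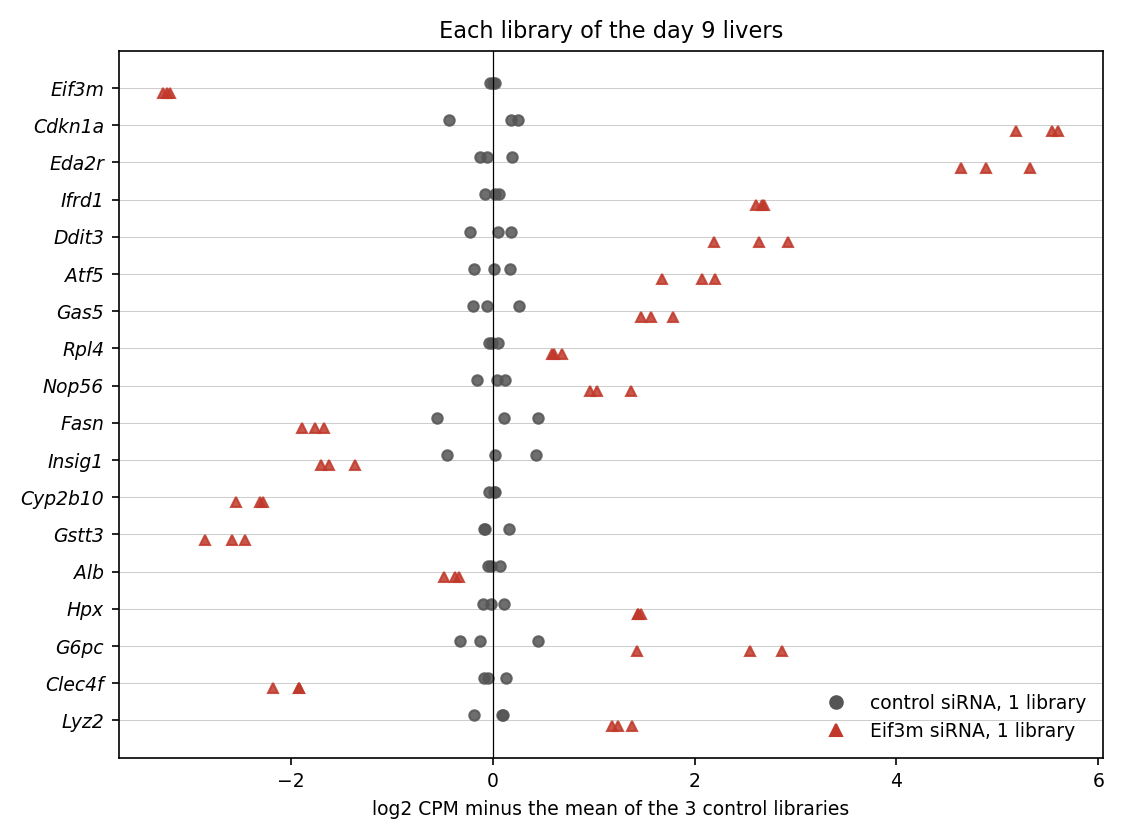
Level of 18 genes in each day 9 library as log2 CPM minus the mean of the 3 controls (horizontal axis), with 1 grey circle per control library and 1 red triangle per siRNA library. In each gene the triangles lie to 1 side of the circles, from Eif3m at about −3.23 to Cdkn1a at about 5.44.

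Genes known as targets of p53 rose more often than they fell. Of 38 tested, 20 rose and 3 fell (52.6% and 7.89%, against 11.4% and 11.6% of all genes). The median was 0.74 against 0.01 for all genes. Cdkn1a (chr17:29090976-29100727, plus strand) was barely present without the Eif3m siRNA and abundant with it, at 0.577, 0.359 and 0.547 CPM in the controls and 22.6, 23.5 and 17.6 CPM in the siRNA livers (log2 fold change 5.44, SE 0.194, adjusted p = 2.30e-06). The other effectors of arrest and damage control followed, with Ccng1 (cyclin G1) at 34.3, 37.9 and 37.8 CPM in the controls and 77.4, 76.8 and 91.7 CPM in the siRNA livers, Btg2 at 0.75, Gadd45a at 1.27, Plk2 at 0.74, Plk3 at 1.24 and the repair polymerase Polk at 0.93. Mdm2, the ligase that p53 induces and that degrades p53 in turn, rose by 0.67. Trp53inp1, a p53-induced nuclear protein, went from 38.3 ± 6.12 to 186 ± 45.8 CPM (SD, n = 3; log2 fold change 2.28, SE 0.208, adjusted p = 0.00112). Trp53 itself, which is regulated mainly as a protein, was at 0.14 and was not called.

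Cell death genes of the p53 program did not move as a block. The receptors Eda2r and Tnfrsf10b rose, Eda2r at 0.210, 0.200 and 0.249 CPM in the controls and 8.73, 5.46 and 6.46 CPM in the siRNA livers and Tnfrsf10b by 2.41, and so did the pore-forming protein Bax (0.97), the BH3 protein Pmaip1 (1.09), the nuclease Aen (1.67) and Phlda3 (3.65), an inhibitor of Akt. Bbc3, which encodes the BH3 protein PUMA, fell from 8.94 ± 2.45 to 2.66 ± 0.392 CPM (SD, n = 3), as did Sesn1 (−0.58) and Dcxr (−0.62). Perp, Fas and Bcl2l1 were at −0.24, 0.19 and 0.08 and were not called. Rises among p53 targets numbered 12 with a mean of at least 5 CPM required. Eda2r, Phlda3 and Pmaip1 lay below that level.

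Upstream sequence of Cdkn1a is shown because it is the member with the largest change and the only p53 target on the list whose window held the p53 consensus. RefSeq promoter windows of build GRCm38.p6 were searched over the 250 bases before each gene start, which could be done for 10783 of 14816 tested symbols, with 13805 windows. The consensus of the p53 response element, sought on both strands as 2 exact sites of 10 bases with 0 to 13 bases between them, was found in 5 of the 13805 windows (0.0362%). Of 46 windows of p53 targets, 1 held it. It lay in 1 of the 2 windows of Cdkn1a, at chr17:29090880-29090963 on the plus strand, where the match runs from 73 to 42 bases before the start and its sites are in capitals.
Cdkn1a: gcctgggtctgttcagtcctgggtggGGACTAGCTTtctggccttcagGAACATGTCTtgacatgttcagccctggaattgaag
These letters describe the window only, and no binding was measured.

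Most ribosomal protein transcripts rose. Of 49 large-subunit proteins 39 rose and 0 fell, with a median of 0.46, and of 34 small-subunit proteins 30 rose and 0 fell, with a median of 0.53. Summed over the lists, the large-subunit transcripts came to 5857 to 6152 CPM in the controls and 8166 to 8703 CPM in the siRNA livers, and the small-subunit ones to 4009 to 4190.2 and 5779.7 to 6126 CPM. Rpl4 stood at 427, 419 and 447 CPM in the controls and 648, 695 and 655 CPM in the siRNA livers, and Rplp0, the stalk protein, went from 311 ± 12.4 to 495 ± 8.49 CPM (SD, n = 3; log2 fold change 0.67, SE 0.0770, adjusted p = 0.00112). Rps3 and Rps6, the latter the classical substrate of S6 kinase, rose by 0.52 and 0.54, and Rack1, a scaffold on the small subunit, by 0.74. Rpl12 and Rps12 had estimates of 1.13 and 1.12, of which only Rpl12 was called. Members not called also included a large-subunit protein at 0.18 and a small-subunit protein at −0.14, each with overlap between the groups. Ribosomal protein genes have many processed pseudogenes, and reads shared with those copies make single values uncertain. Rises among large-subunit proteins numbered 16 with the spread over all 12 libraries. Rises among small-subunit proteins numbered 18 with the spread over all 12 libraries. No alternative, DESeq2 and limma-voom included, called a fall on either list or among the other eIF3 subunits.

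Assembly factors of the ribosome moved in the same direction, though fewer passed the test. For the small subunit, 23 of 49 processome and 40S factors rose and 0 fell (median 0.26). Rrp12, needed for export of both subunits, stood at 5.85, 4.73 and 5.00 CPM in the controls and 12.5, 14.2 and 11.0 CPM in the siRNA livers, and Nop56 and Nop58, the core proteins of box C/D nucleolar particles, rose by 1.13 and 0.94. Fbl, the methyltransferase of the same particles, was at 0.11 and was not called. For the large subunit and RNA polymerase I, 32 of 60 rose and 1 fell (median 0.34), among them Mdn1, a giant ATPase of 60S maturation (0.89), the helicase Ddx21 (0.88), Npm1 (nucleophosmin, 0.71), Ncl (nucleolin, 0.53) and Polr1a, the largest subunit of RNA polymerase I (0.66). The member that fell was Nop10 (−0.36). Rises among small-subunit assembly factors numbered 14 without siRNA replicate 3.

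The hosts of small nucleolar RNAs, noncoding transcripts whose introns carry these RNAs, rose in 6 of 14 tested cases and fell in 0. Gas5 stood at 45.0, 36.1 and 32.8 CPM in the controls and 104, 130.0 and 112 CPM in the siRNA livers (log2 fold change 1.60, SE 0.132, adjusted p = 3.64e-04). Zfas1, Snhg5, Snhg1, Snhg12 and Snhg15 rose by 1.77, 1.54, 1.29, 1.27 and 2.19. Snhg3 was at 0.04 with adjusted p = 0.929. Many of these spliced hosts are known substrates of nonsense-mediated decay. Of the factors of that pathway 2 of 19 rose and 1 fell, 10.5% and 5.26% against 11.4% and 11.6% of all genes. Upf3a (0.41) and Pnrc2 (0.35) rose, Smg6 fell (−0.34), and the helicase Upf1 was at −0.07 and not called. Rises among decay factors numbered 0 with the spread over all 12 libraries, without siRNA replicate 2 or control replicate 3 and 1 without siRNA replicate 3 or control replicate 2. Rises among snoRNA hosts numbered 3 with a mean of at least 5 CPM required.

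Other parts of translation differed among themselves. Of 33 factors outside eIF3, 20 rose and 0 fell (median 0.34), with a summed level of 9731 to 10314 CPM in the controls and 13859.9 to 14140.5 CPM in the siRNA livers. Eef1b2, an exchange factor of elongation, rose by 0.75, and Pabpc1 (the poly(A)-binding protein), Eif5 and Eif4g2 rose by 0.73, 0.73 and 0.73. Eef2, the translocase, went from 1399 ± 41.3 to 1967 ± 40.4 CPM, and Eif2s1, the alpha subunit of eIF2, from 37.7 ± 0.787 to 52.3 ± 2.42 CPM (SD, n = 3). The scaffold Eif4g1 was at −0.02 and was not called. Cytosolic aminoacyl-tRNA synthetases showed no common direction, with 4 of 21 higher, led by Sars at 0.52 and Wars at 0.47, and 3 lower, namely Cars (−0.57), Tars (−0.57) and Mars (−0.32). Their shares were 19% higher and 14.3% lower, against 11.4% and 11.6% of all genes. Rises among synthetases numbered 2 with the spread over all 12 libraries, without siRNA replicate 2, siRNA replicate 3, control replicate 1, control replicate 2 or control replicate 3. Mitochondrial ribosomal proteins had 6 of 78 called higher and 9 lower, shares of 7.69% and 11.5% that do not exceed those of all genes. Rises among mitochondrial ribosomal proteins numbered 10 with a mean of at least 5 CPM required, 2 with the spread over all 12 libraries and 3 without siRNA replicate 3 or control replicate 2. Falls among mitochondrial ribosomal proteins numbered 4 with the spread over all 12 libraries, without siRNA replicate 1 or siRNA replicate 2 and 3 without control replicate 3.

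**Figure D3:**
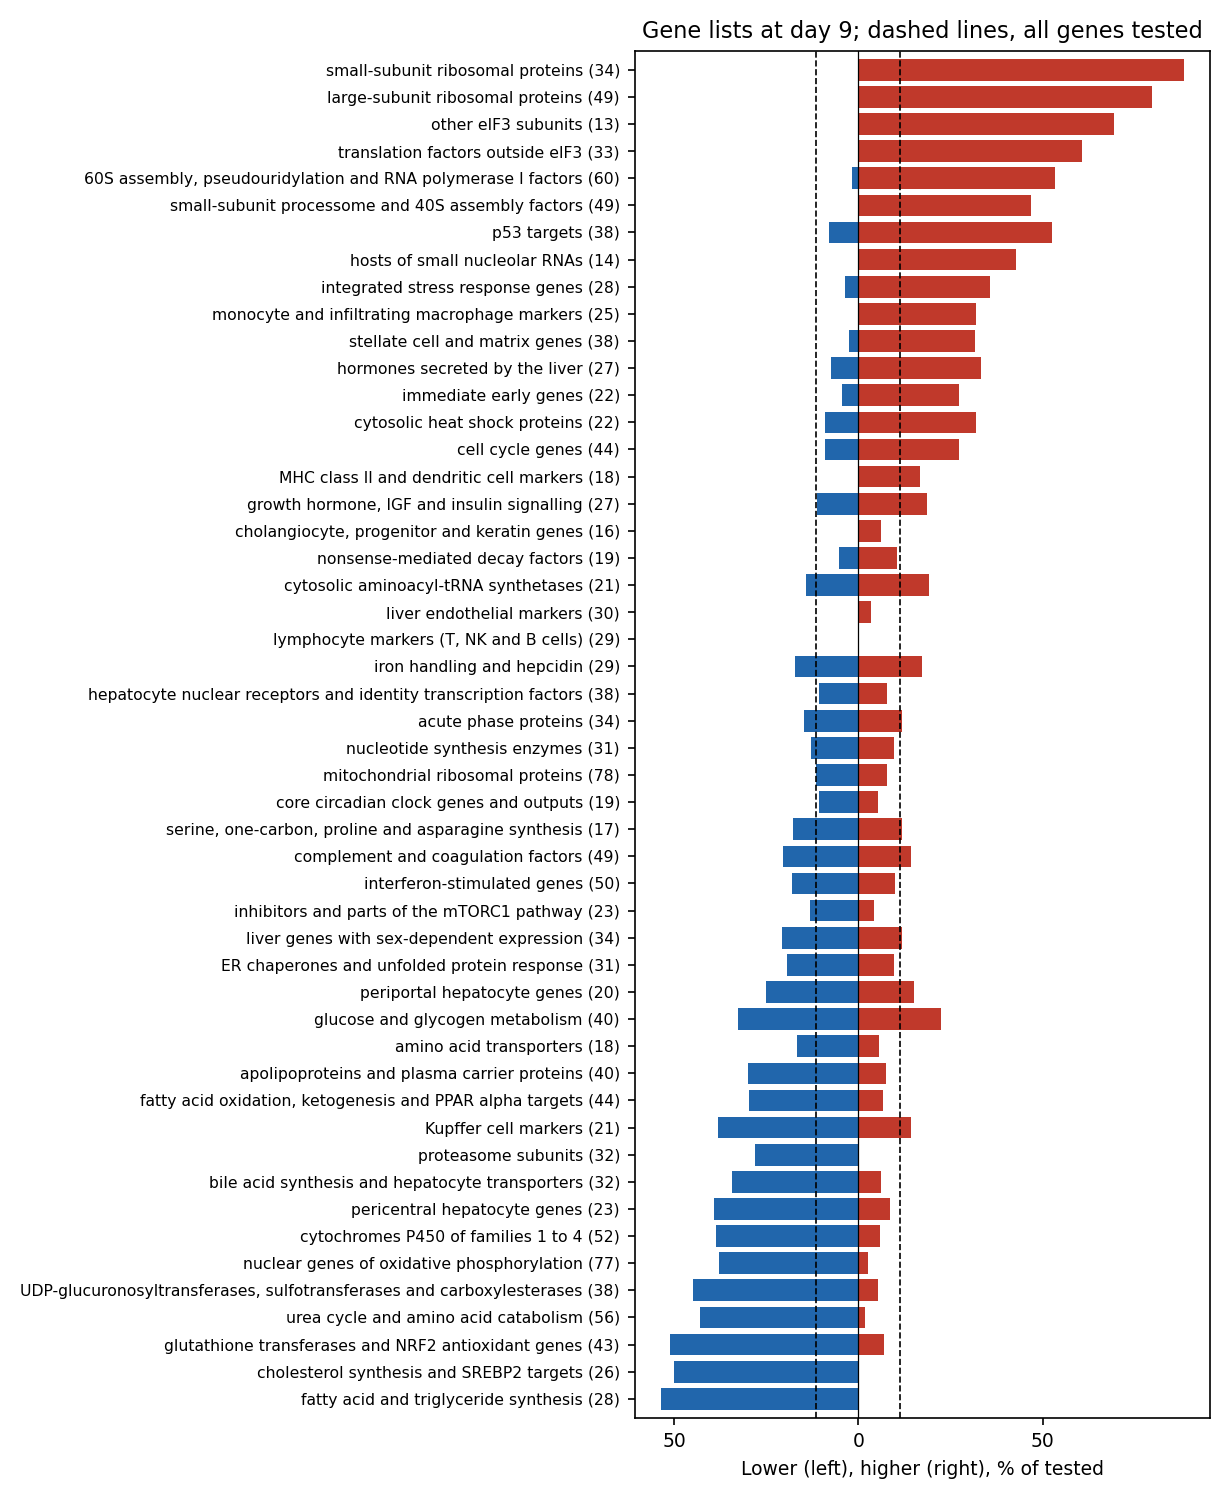
Share of tested members called higher (red, to the right) and called lower (blue, to the left) in the gene lists described at day 9 (neutrophil, erythroid and hepatocyte markers not drawn), in percent, with the number tested in brackets. The dashed lines mark all genes tested, 11.4% higher and 11.6% lower. Ribosomal proteins lie at the top, with 30 of 34 and 39 of 49 members higher, and lists of lipid synthesis and detoxification at the bottom.

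In the integrated stress response several transcription factors rose. Of 28 genes tested 10 rose and 1 fell (35.7% and 3.57%, against 11.4% and 11.6% of all genes). The list median was 0.17. Atf5 stood at 299.7, 261 and 335 CPM in the controls and 948, 1363 and 1247 CPM in the siRNA livers (log2 fold change 1.99, SE 0.152, adjusted p = 2.67e-04), and Ddit3, which encodes CHOP, at 5.83, 5.33 and 4.40 CPM in the controls and 23.5, 39.0 and 32.0 CPM in the siRNA livers (log2 fold change 2.60, SE 0.201, adjusted p = 5.07e-04). Exons of Atf5 overlap those of Nup62 and Il4i1, and those of Ddit3 overlap Mars, so reads could be shared. Trib3, the pseudokinase induced by CHOP, went from 10.7 ± 1.71 to 34.4 ± 13.5 CPM, Atf3 from 1.11 ± 0.346 to 3.42 ± 0.276 CPM and Cebpg, a dimer partner of ATF4, from 61.7 ± 3.62 to 123 ± 11.0 CPM (SD, n = 3). Sesn2, an inhibitor of mTORC1 and a target of both p53 and ATF4, rose by 1.17. Atf4 itself, controlled largely through translation of its messenger RNA, was at −0.27, and Chac1 and Ddit4 were at −0.56 and 0.12, none of them called. The kinase Eif2ak4 (GCN2) fell (−0.31). Rises among stress response genes numbered 6 without control replicate 2.

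ATF4-driven amino acid genes were mixed. Asns (asparagine synthetase) and Mthfd2 rose by 1.05 and 1.08 from control levels below 1 CPM, calls lost in 11 and 6 of the 14 alternatives, while the serine synthesis genes Phgdh, Psat1 and Psph were at 0.03, 0.66 and 0.05 and were not called. The folate enzymes Shmt2, Shmt1 and Mthfd1 fell, Shmt2 from 166 ± 10.5 to 90.2 ± 10.1 CPM (SD, n = 3). Of 18 amino acid transporters Slc38a2 rose, from 102 ± 20.9 to 189 ± 21.7 CPM (SD, n = 3), and Slc43a1, Slc36a1 and Slc6a6 fell, at −1.07, −0.49 and −0.39. The shares were 5.56% higher and 16.7% lower, against 11.4% and 11.6% of all genes. Rises among transporters numbered 2 with a mean of at least 5 CPM required or without control replicate 1. Falls among transporters numbered 1 with the spread over all 12 libraries and 5 without control replicate 1 or by DESeq2. Among 23 parts of the mTORC1 pathway Sesn2 was the sole rise, and Eif4ebp2, Tsc1 and Sesn1 fell (−0.35, −0.42 and −0.58). That is 4.35% higher and 13% lower, near or under the shares of all genes.

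Promoter windows of 4 stress genes are shown because they carry the core letters of the composite element read by CHOP, ATF4 and C/EBP proteins, TGATGNAA. These letters were sought on both strands and were in 289 of 13805 windows of tested genes (2.09%). They were in 2.99% of windows of genes called higher, 2.51% of genes called lower and 1.89% of genes not called. Of 29 windows of the integrated stress response list 6 held them, belonging to Atf3, Chac1, Herpud1, Jdp2, Nupr1 and Vldlr. Capitals mark the letters, and where they read TTGCATCA the element is on the other strand.
Asns, chr6:7693210-7693258, minus strand, 23 to 16 bases before the start: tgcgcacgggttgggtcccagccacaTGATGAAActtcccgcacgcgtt
Atf3, chr1:191183410-191183469, minus strand, 110 to 103 bases before the start: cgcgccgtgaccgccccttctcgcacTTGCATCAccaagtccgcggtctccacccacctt
Chac1, chr2:119351023-119351082, plus strand, 193 to 186 bases before the start: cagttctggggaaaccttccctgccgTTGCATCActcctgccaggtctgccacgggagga
Nupr1, chr7:126625547-126625606, minus strand, 110 to 103 bases before the start: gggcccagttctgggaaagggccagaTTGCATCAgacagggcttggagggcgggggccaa
Atf3 and Asns were called higher, at 1.64 and 1.05, and Chac1 and Nupr1, at −0.56 and 0.85, were not called. Asns is from the amino acid synthesis list, and its call was lost in 11 of the 14 alternatives. Herpud1, Jdp2 and Vldlr, whose windows are not shown, were at 0.17, 0.66 and −0.0 and were not called. No difference between these genes was tested.

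Some chaperone genes of the cytosol rose. Among 22 cytosolic heat shock proteins 7 rose and 2 fell (31.8% and 9.09%, against 11.4% and 11.6% of all genes). The list median was 0.16. Hspa8, the constitutive Hsc70, went from 291 ± 8.82 to 474 ± 29.8 CPM (SD, n = 3), and the inducible pair Hspa1a and Hspa1b, near-identical copies that can share reads, rose by 1.60 and 1.36. The cochaperones Bag3 and Dnajb2 fell (−0.48 and −0.42), and Hsp90aa1 was at 0.07 and not called. In the endoplasmic reticulum 3 of 31 rose and 6 fell (9.68% and 19.4%, median 0.00), against 11.4% and 11.6% of all genes. The sensor kinase Ern1 (IRE1) rose by 0.65 and Atf6 by 0.32, Derl3, Sdf2l1 and Pdia4 fell (−1.65, −0.61 and −0.38), and the master chaperone Hspa5 (BiP) and Xbp1 were at 0.14 and −0.10, not called. Of 32 proteasome subunits none rose and 9 fell, the lowest at −0.37. Falls among proteasome subunits numbered 5 with no filter, 0 with the spread over all 12 libraries or without control replicate 3, 2 without siRNA replicate 1, 3 without siRNA replicate 2 or control replicate 2 and 4 without siRNA replicate 3. Falls among ER genes numbered 3 with the spread over all 12 libraries, without siRNA replicate 3 or control replicate 3. Rises among ER genes numbered 1 with the spread over all 12 libraries, without control replicate 2 or control replicate 3.

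Hormones made by the liver included several strong rises. Fgf21, a fasting and stress hormone, stood at 1.34, 0.799 and 0.473 CPM in the controls and 4.67, 4.35 and 7.97 CPM in the siRNA livers, and Gdf15, which acts on the brainstem to lower food intake, at 2.05, 1.92 and 2.54 CPM in the controls and 5.07, 7.26 and 7.60 CPM in the siRNA livers. Igfbp2 went from 119 ± 24.0 to 250.5 ± 38.4 CPM and Tsku from 16.8 ± 7.62 to 44.4 ± 6.65 CPM (SD, n = 3), and Hamp, the iron hormone hepcidin, rose by 0.46. Thpo (thrombopoietin) and Agt (angiotensinogen) fell (−0.60 and −0.55). Of 27 tested, 9 rose and 2 fell (33.3% and 7.41%, against 11.4% and 11.6% of all genes). In growth hormone, IGF and insulin signalling 5 of 27 rose and 3 fell (18.5% and 11.1%, against 11.4% and 11.6% of all genes). The rises were Igfbp1, Igfbp2, the insulin receptor substrate Irs2 (0.57), the adaptor Grb10 (0.45) and Igfbp3 (0.26). The falls were the receptor Ghr (−0.40), its signal carrier Stat5b (−0.35) and Igfals (−0.86), the partner of circulating IGF1, and Igf1 was at −0.12 and not called. Rises among signalling genes numbered 2 with the spread over all 12 libraries, without control replicate 1 or control replicate 3 and 3 without siRNA replicate 1, siRNA replicate 2 or siRNA replicate 3. Falls among signalling genes numbered 1 with the spread over all 12 libraries, without siRNA replicate 3 or control replicate 2. Rises among hormones numbered 5 with the spread over all 12 libraries.

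Lipid synthesis genes were lower. The list for making fatty acids and triglycerides had 28 tested members, of which 15 fell and 0 rose (median −0.55), and of 26 genes of cholesterol synthesis 13 fell and 0 rose (median −0.81). Fasn, the fatty acid synthase, stood at 600.5, 379.8 and 761 CPM in the controls and 150.1, 175 and 165 CPM in the siRNA livers. Thrsp and Acss2, which support lipogenesis, went from 802 ± 240.4 to 192 ± 74.0 CPM and from 236 ± 92.6 to 56.3 ± 7.74 CPM (SD, n = 3). Scd1, the stearoyl-CoA desaturase, and Srebf1, the transcription factor that drives this pathway, changed by −1.14 and −0.79. Dgat2 and Plin2, which store triglyceride, were at −0.27 and −0.17 and were not called.

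The cholesterol genes differed among the controls. The whole list summed to 5999, 4291 and 7139 CPM in the 3 controls and to 2898 to 3899 CPM in the siRNA livers, so control replicate 2 lay nearest to the treated livers. Insig1, the sterol sensor that holds SREBP in the endoplasmic reticulum, stood at 623, 448 and 824 CPM in the controls and 199, 188 and 238 CPM in the siRNA livers. Pmvk and Dhcr7 fell (−1.42 and −1.31). Sqle, the squalene epoxidase, was at 0.25 and was not called. Falls among cholesterol genes numbered 7 without siRNA replicate 1, siRNA replicate 2, control replicate 1 or control replicate 3 and 21 without control replicate 2.

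The promoter of Hmgcs1, the synthase at the entry of the pathway (495 ± 167 to 226 ± 58.8 CPM, SD, n = 3; adjusted p = 0.0444), is shown because it was the only cholesterol gene whose window held the letters TCACNCCAC of a sterol regulatory element on either strand. They were in 144 of 13805 windows (1.04%), with 1.73% of windows of genes called lower, 0.764% of those called higher and 0.967% of those not called. The stretch is on the plus strand at chr13:119690188-119690248, with the letters from 137 to 129 bases before the start in capitals.
Hmgcs1: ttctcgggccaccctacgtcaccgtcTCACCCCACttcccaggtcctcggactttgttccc
The other windows of the list lacked these exact letters, which says nothing of sites that differ from them or lie elsewhere.

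Oxidative metabolism was lower in part. Of 44 genes of fatty acid oxidation, ketogenesis and PPAR alpha targets 13 fell and 3 rose (median −0.23). These were 29.5% and 6.82% of the list, against 11.6% and 11.4% of all genes. Cpt1a, the gate to mitochondrial oxidation, rose from 283 ± 22.5 to 436 ± 69.8 CPM (SD, n = 3), while Hacl1 and Acot1 fell (−1.47 and −1.83). Ppara was at 0.12 and was not called. Among 77 nuclear genes for the respiratory chain 29 fell and 2 rose (median −0.21). The falls included Ndufa1 at −0.77, Uqcr11 at −0.55 and Cox6c at −0.53. The 2 rises were at 0.34 and 0.33, and members not called included estimates of −0.05, −0.12 and −0.24. Falls among respiratory chain genes numbered 2 with the spread over all 12 libraries, 10 without siRNA replicate 1, 16 without siRNA replicate 2, 15 without control replicate 2 and 11 without control replicate 3. Falls among oxidation genes numbered 8 without control replicate 3.

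Glucose genes changed on both sides. Pck1 and G6pc, which make and release glucose, were high in the siRNA livers: Pck1 was at 703, 1424 and 1275 CPM in the controls and 3035, 3147 and 3410.0 CPM in the siRNA livers. G6pc was at 28.1, 32.3 and 47.8 CPM in the controls and 94.6, 257 and 205 CPM in the siRNA livers (adjusted p = 0.0197), with treated replicate 1 below the other two. Pfkfb1 and Pklr (liver pyruvate kinase) fell (−0.90 and −0.73). Of 40 tested, 9 rose and 13 fell (22.5% and 32.5%, against 11.4% and 11.6% of all genes). In amino acid catabolism 24 of 56 fell and 1 rose (median −0.26), with Prodh (proline dehydrogenase) from 234 ± 20.4 to 79.2 ± 4.75 CPM and Ass1 (argininosuccinate synthase) from 3952 ± 419 to 2289 ± 354 CPM (SD, n = 3). Tdo2, which opens tryptophan breakdown, was the rise (0.51), and Cps1, the entry enzyme of the urea cycle, was at 0.26 and not called. Rises among glucose genes numbered 5 without siRNA replicate 3 or control replicate 2. Falls among glucose genes numbered 7 with the spread over all 12 libraries, without siRNA replicate 2 or control replicate 3 and 8 without siRNA replicate 1 or control replicate 2. Falls among catabolic genes numbered 14 with the spread over all 12 libraries, 12 without siRNA replicate 1 and 11 without control replicate 3.

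Detoxification genes fell widely. Glutathione transferases and NRF2 antioxidant genes had 22 falls and 3 rises among 43 (median −0.47), glucuronosyltransferases, sulfotransferases and carboxylesterases 17 falls and 2 rises among 38 (median −0.41), and cytochromes P450 20 falls and 3 rises among 52 (median −0.25). Gstt3 stood at 156, 157 and 185 CPM in the controls and 22.8, 27.5 and 30.1 CPM in the siRNA livers (log2 fold change −2.63, SE 0.122, adjusted p = 1.32e-05). Cyp2b10, the classical target of the receptor CAR, stood at 40.7, 39.0 and 40.5 CPM in the controls and 6.88, 8.11 and 8.29 CPM in the siRNA livers (log2 fold change −2.37, SE 0.0928, adjusted p = 4.06e-06). Nr1i3, which encodes CAR, was at −1.07 without passing the test (adjusted p = 0.0702), and was called in 7 of the 14 alternatives, DESeq2 and limma-voom among them. Cyp2a5 and Cyp1a2 fell (−1.33 and −0.78), and Cyp3a11 and Cyp2e1 were at 0.01 and −0.37, not called. Ces2a, Ces1d and Ugt1a1, the bilirubin conjugating enzyme, changed by −1.24, −1.43 and −1.25. Hmox1 (haem oxygenase), Gss and Sqstm1 were the rises among antioxidant genes (0.82, 0.55 and 0.46), while Nqo1, a defining NRF2 target, fell (−0.86). Members of these families are close copies, and counts may be shared among them. Falls among conjugating enzymes and carboxylesterases numbered 10 without control replicate 3.

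Of 32 genes that make or carry bile acids, 11 fell and 2 rose (34.4% and 6.25%, against 11.6% and 11.4% of all genes). The rate-limiting enzyme Cyp7a1 and the export pump Abcb11 were at 0.11 and 0.19, not called. Cyp27a1, which opens the alternative pathway, Slc10a1, the bile acid importer, and the uptake carrier Slco2b1 fell, the last from 199 ± 19.3 to 66.9 ± 5.61 CPM (SD, n = 3; log2 fold change −1.57, adjusted p = 7.18e-05). Among transcription factors that define hepatocytes, Hnf4a was at 0.19, Foxa2 at −0.29 and Cebpa at −0.21, none called. Of 38 factors 3 were higher and 4 lower, shares of 7.89% and 10.5% that do not exceed the 11.4% and 11.6% of all genes. Nr0b2 (SHP), the repressor induced by the bile acid receptor, and Tbx3 fell (−1.07 and −0.82), and Prox1 rose (0.63). Of 23 pericentral genes, expressed around the central vein, 9 fell and 2 rose (39.1% and 8.7%, against 11.6% and 11.4% of all genes). Their median was −0.37. Axin2, a Wnt target whose call was lost in 7 of the 14 alternatives, was at −0.43. Glul was at −0.13 and was not called. Periportal genes had 5 of 20 lower and 3 higher (25% and 15%, against 11.6% and 11.4% of all genes). Falls among pericentral genes numbered 4 without siRNA replicate 1. Their rises numbered 0 or 1 in 13 of the 14 alternatives.

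Secreted plasma proteins moved in both directions. Alb was lower in every treated liver than in any control (log2 fold change −0.40, SE 0.0850, adjusted p = 0.012). Apoa2 and Apoc3, small apolipoproteins, fell (−1.11 and −0.98), as did Ttr (−0.72), while Apob and Apoa1 were at 0.32 and −0.28, not called. Hpx (hemopexin, which binds free haem) rose from 2706 ± 192 to 7375 ± 86.8 CPM (SD, n = 3; log2 fold change 1.45, SE 0.0877, adjusted p = 6.24e-05), and Ahsg (fetuin A) rose by 0.44. Of 40 apolipoproteins and carriers 3 rose and 12 fell (7.5% and 30%, against 11.4% and 11.6% of all genes). Of 34 acute phase genes 4 rose and 5 fell, shares of 11.8% and 14.7% close to the 11.4% and 11.6% of all genes, with Saa3 (1.53) and Hp (haptoglobin, 0.40) higher and Crp (−0.37), Orm1 (−0.65) and Mt1 (metallothionein, −2.00) lower, and Saa1 at 0.35, not called. In complement and coagulation 7 of 49 rose, including C8a (0.98) and the protease inhibitor Mug1 (0.85), and 10 fell, including C8g (−0.68) and F7 (−0.57). These were 14.3% and 20.4% of that list, against 11.4% and 11.6% of all genes. In iron handling Hamp2 and Hfe2, the hemojuvelin gene, fell (−3.12 and −1.14), and Slc40a1 (ferroportin) rose (0.46). Falls among apolipoproteins and carriers numbered 7 with the spread over all 12 libraries. Falls among acute phase genes numbered 3 with no filter or without control replicate 3, 2 without siRNA replicate 3 or control replicate 2 and 9 by DESeq2. Rises among complement and coagulation genes numbered 3 with the spread over all 12 libraries, 2 without siRNA replicate 1 and 4 without siRNA replicate 3 or control replicate 3. Falls among complement and coagulation genes numbered 6 with the spread over all 12 libraries, 5 without control replicate 1, control replicate 2 or control replicate 3 and 17 by DESeq2.

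Levels of core clock genes depend on the hour of sampling. Of 19 genes and outputs 1 rose, which was Tsku, and 2 fell, among them Cry2 (−0.41), shares of 5.26% and 10.5% against 11.4% and 11.6% of all genes. In the alternatives the rises numbered 0 to 3 and the falls 1 to 3. Arntl, Clock, Per1 and Per2 were at 0.38, 0.29, 0.89 and 0.27, with adjusted p of 0.573, 0.388, 0.0582 and 0.0709. The sampling hour is not given in the labels, and its part in the metabolic changes was not tested. Immediate early genes had 6 of 22 higher and 1 lower (27.3% and 4.55%, against 11.4% and 11.6% of all genes). Jun was at 0.92 and Zfp36 at −0.80, while Egr1, Myc and Fos, at −2.30, 1.88 and −0.36, did not pass. Of 44 cell cycle genes 12 rose and 4 fell (27.3% and 9.09%, against 11.4% and 11.6% of all genes). Mki67 stood at 1.36, 0.899 and 1.64 CPM in the controls and 5.29, 3.43 and 3.34 CPM in the siRNA livers, and Top2a rose by 1.84, a DNA topoisomerase of dividing cells. The S-phase helicase genes Mcm2 to Mcm6 were each between −0.34 and 0.01 and were not called. Rises among cell cycle genes numbered 2 with a mean of at least 5 CPM required, 4 with the spread over all 12 libraries, 5 without siRNA replicate 1, siRNA replicate 3, control replicate 2 or control replicate 3 and 7 without control replicate 1.

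Among genes of other cell types, several markers of resident macrophages fell. In whole liver, fewer cells of a type and less RNA per cell cannot be told apart. Of 21 Kupffer cell markers 8 fell and 3 rose (38.1% and 14.3%, against 11.6% and 11.4% of all genes). Rises among Kupffer cell markers numbered 0 without siRNA replicate 1 and 1 without siRNA replicate 2, siRNA replicate 3 or control replicate 2. Clec4f, a lectin found on Kupffer cells, stood at 97.1, 95.0 and 110.1 CPM in the controls and 26.6, 22.3 and 26.6 CPM in the siRNA livers (log2 fold change −2.00, SE 0.0989, adjusted p = 1.79e-05). Vsig4, a complement receptor, was at 23.4, 24.4 and 30.2 CPM in the controls and 8.14, 7.12 and 7.24 CPM in the siRNA livers, and Cd163, the haemoglobin scavenger receptor, went from 4.73 ± 1.22 to 0.613 ± 0.331 CPM (SD, n = 3). Folr2, Marco, Fcna, Timd4 and C1qa also fell (−1.55, −0.70, −0.71, −0.48 and −0.45). Cd5l and Csf1r were at 0.28 and 0.19, not called, and Adgre1 (F4/80) and Spic rose (0.41 and 0.78), calls lost in 8 and 6 of the 14 alternatives. Summed over the list the level was 814 to 1012 CPM in the controls and 855 to 960.4 CPM in the siRNA livers, with overlap.

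Markers of monocytes and infiltrating macrophages rose in part. Of 25 tested 8 rose and 0 fell (32% and 0%, against 11.4% and 11.6% of all genes), with a median of 0.39. The summed level was 128 to 156 CPM in the controls and 230.2 to 269 CPM in the siRNA livers, with no overlap. Lyz2, the macrophage lysozyme, stood at 37.5, 45.7 and 45.8 CPM in the controls and 112, 96.8 and 101 CPM in the siRNA livers (log2 fold change 1.26, SE 0.0993, adjusted p = 2.53e-04). Ccr2, the receptor of recruited monocytes, Clec7a, Lgals3, Itgax and Cybb rose by 1.24, 1.59, 1.43, 1.68 and 0.69. Ly6c2 and Itgam, which also mark monocytes, were at 0.26 and 0.08 and were not called. Dendritic cell genes Flt3 and Xcr1 rose by 1.82 and 1.79 from control levels below 0.5 CPM, and the class II genes H2-Aa, H2-Ab1 and Cd74 were at 0.16, 0.33 and 0.32, not called. Of 50 interferon-stimulated genes 9 fell, with Ifit1 and Oasl1 at −1.22 and −1.86, and 5 rose, among them Cxcl9 (1.19) and Gbp2 (0.80). These were 18% and 10% of the list, against 11.6% and 11.4% of all genes. Rises among monocyte markers numbered 3 with a mean of at least 5 CPM required. Rises among interferon-stimulated genes numbered 3 with a mean of at least 5 CPM required, without siRNA replicate 1, control replicate 2 or control replicate 3.

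Some stromal genes rose. Of 38 matrix and stellate cell genes, 12 rose and 1 fell (31.6% and 2.63%, against 11.4% and 11.6% of all genes). Their median was 0.35. Col1a1 and Col3a1, fibrillar collagens, stood at 7.64, 9.35 and 5.50 CPM in the controls and 19.5, 13.0 and 12.7 CPM in the siRNA livers for Col1a1 and went from 41.3 ± 5.12 to 72.8 ± 11.4 CPM (SD, n = 3) for Col3a1. Vim and Vcam1, an adhesion molecule, rose by 0.87 and 1.54, while the stellate cell markers Lrat and Des and the activation marker Acta2 were at −0.01, −0.15 and −0.03, not called. Of 30 endothelial markers only Lyve1 rose, from 4.88 ± 1.14 to 11.7 ± 2.25 CPM (SD, n = 3), and Pecam1, Cdh5 and Stab2 were at 0.09, −0.02 and 0.22. Of 29 lymphocyte markers edgeR called 0, with 4 at an unadjusted p under 0.05, and DESeq2 called 2 lower. Falls among lymphocyte markers numbered 3 without control replicate 3 and 1 with no filter or the replicate block. Il1b was the only call among 7 neutrophil markers (0.77), Klf1 among 9 erythroid markers (−0.75) and Krt18 among 16 cholangiocyte and keratin genes (0.42), with the biliary keratin Krt19 at 0.03. Rises among matrix and stellate genes numbered 7 with the spread over all 12 libraries or without control replicate 1 and 6 without control replicate 3.

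**Figure D4:**
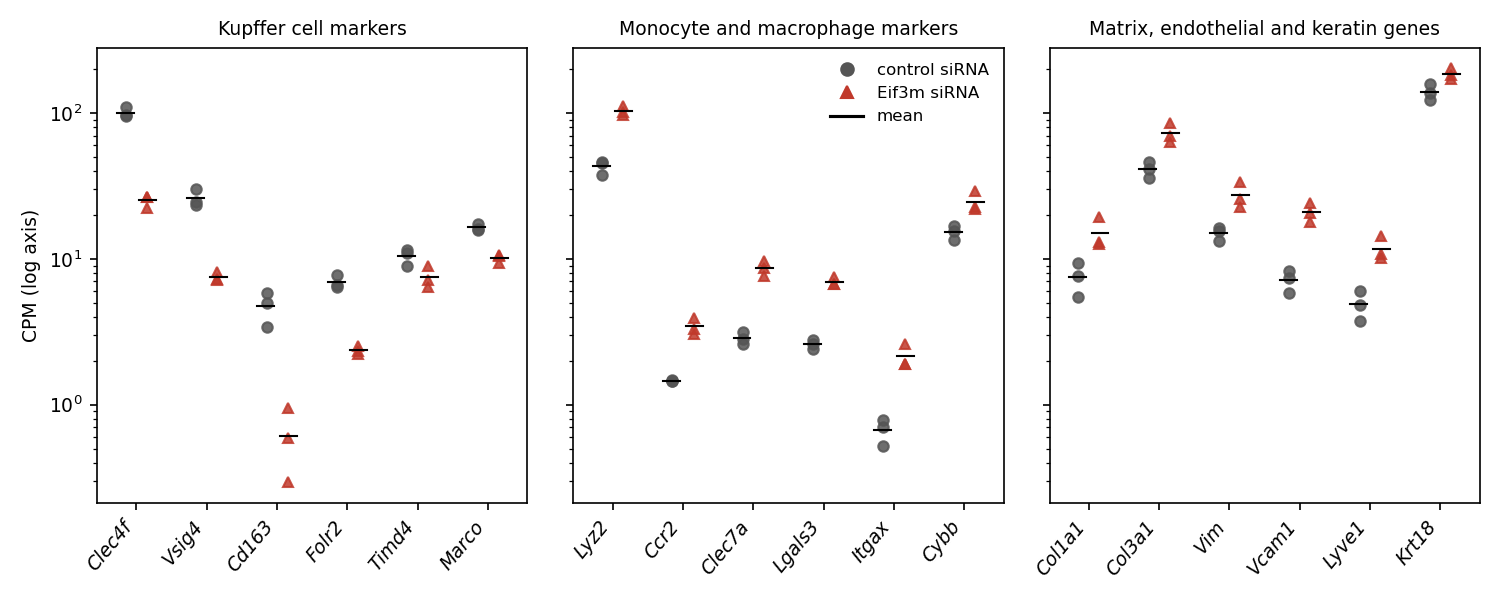
Levels in CPM (vertical, log axis) of 18 genes of nonparenchymal cells in the day 9 livers, with grey circles for the 3 control libraries, red triangles for the 3 siRNA libraries and black bars for the group means. Triangles lie below the circles for 6 Kupffer cell markers at left, chosen among the 8 of 21 that fell, and above them for 6 monocyte and macrophage markers in the middle, chosen among the 8 of 25 that rose. The 6 genes at right were also chosen among those called higher. Lyve1 was the only call of 30 endothelial markers and Krt18 the only call of 16 cholangiocyte and keratin genes. The others are among the 12 of 38 matrix and stellate genes that rose.

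The day 13 livers, which share no library with day 9, carry the same treatment labels at a later day. With 1 injection in 5 days, the number of doses received by day 13 may differ from that by day 9. Of the 3157 genes called at day 9 that could be tested at day 13, 2692 (85.3%) changed with the same sign, against 68.0% of all 11913 genes tested at both days. Of the 3157, 1145 were also called at day 13 in the same direction and 42 in the opposite direction, in a fit that called 8.86% of its 11964 genes higher and 7.97% lower. Of the 30 genes with the largest changes at day 9, 29 were tested at day 13, and 25 of these had the same sign there, among them Cdkn1a at 5.04, Ifrd1 at 2.84, Gstt3 at −2.76 and Cyp2b10 at −2.55. The other 4 were Cyp17a1 at 0.49, Depp1 at 0.05, Gadd45g at −0.98 and G6pc at −0.27, of which G6pc alone passed the test of the difference. The Cyp17a1 control mean was 130 CPM at day 9 and 19.7 CPM at day 13, and the siRNA mean 5.95 and 27.3 CPM. Control means of Depp1 were 124 and 18.5 CPM, and siRNA means 29.1 and 19.0 CPM. The difference between the days was tested directly over all 12 libraries, where 2.55% of 14248 genes were called. Of the 3377 genes called at day 9 and tested there, 181 differed between the days. The 2 sets of livers also differ in sequencing depth and library set, and may differ in doses received, which cannot be told apart from the day.

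**Figure D5:**
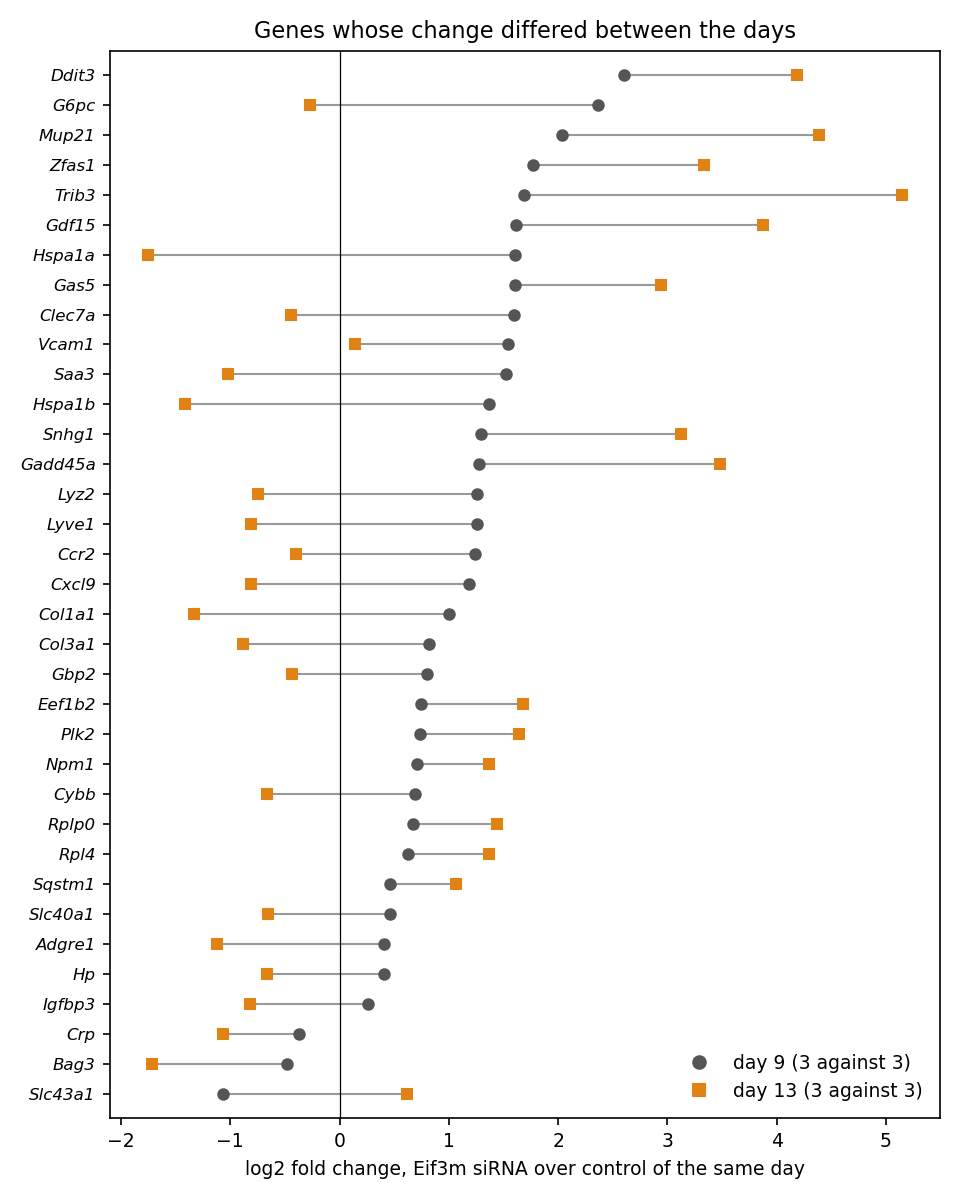
Log2 fold change of Eif3m siRNA over the control of the same day at day 9 (grey circles) and day 13 (orange squares) for the named genes whose change differed between the days and that were tested at both, 3 libraries against 3 at each day. Lyz2 lies at 1.26 at day 9 and −0.74 at day 13, and Trib3 at 1.69 and 5.15.

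Of the genes named here whose change differed between the days, some lay further from the control at day 13 and others had the opposite sign. Trib3 was at 1.69 at day 9 and 5.15 at day 13 (difference 3.47, adjusted p = 0.00277), and Ddit3, Gas5, Rpl4 and Npm1 showed differences of 1.60, 1.34, 0.74 and 0.66. Lyz2 showed a difference of −2.00 (adjusted p = 6.64e-04), and was higher than control at day 9 and lower at day 13. Clec7a, Ccr2, Adgre1, Col1a1, Col3a1 and Lyve1 had that order too, at −0.44, −0.40, −1.12, −1.34, −0.88 and −0.81 at day 13. Hspa1a, Hspa1b and G6pc, higher at day 9, were at −1.75, −1.42 and −0.27 at day 13. Their control levels also differed between the days, each day scaled on its own. The G6pc control mean was 36.0 CPM at day 9 and 185 CPM at day 13, and the siRNA mean 185 and 153 CPM. Control means of Hspa1b were 4.87 and 42.3 CPM, and siRNA means 12.6 and 15.9 CPM. Control means of Hspa1a were 1.04 and 7.54 CPM, and siRNA means 3.16 and 2.32 CPM. Clec4f was at −2.00 at day 9 and −1.70 at day 13.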

How the data were processed

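Poly(A) RNA captured from ground liver was sequenced, per the labels' protocols. The authors deposited expected counts per gene for 50686 genes in 12 libraries as whole numbers. RSEM 1.3.0, STAR 2.5.3a and the build mm10 are listed in the submitters' processing notes. No source used here gives the annotation, strand setting or rounding. The values were used as they stand, and symbols and positions came from GENCODE M21 for 50376 genes.

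The 6 day 9 libraries were fitted alone in edgeR 4.0.16 (R 4.3.3): filterByExpr with a minimum count of 10, TMM scaling, the robust quasi-likelihood test with 4 residual degrees of freedom, and Benjamini-Hochberg adjustment over 14817 genes at 0.05. The standard error is the absolute log2 fold change over the square root of F. The difference between days came from a 12-library fit of 14248 genes. On simulated data with 200 changed genes the day 9 test recovered 37.3%, 56.7% and 92.4% of those changed 1.5-, 2- and 4-fold, and 8.15% of its calls were false, above the 0.05 sought. The simulation changed 200 of 14817 genes, while 3412 were called in the livers, so these shares may not carry over. Alternatives were DESeq2 1.42.0, its size factors, upper-quartile scaling, limma-voom (limma 3.58.1), no filter, a 5 CPM minimum on the mean, all 12 libraries, a replicate block and leaving out each library. No pair of libraries agreed within sampling noise.

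The lists and the comparison were chosen with earlier results of these data known. Genes named were taken from those that a rule selects, though not all of these are named. The rule takes Eif3m, and the 15 largest rises and 15 largest falls among genes called with separate groups and a mean reaching 5 CPM. It also takes the first 4 members of each list and up to 4 called members with the smallest p in each direction. All called members are taken where they number 5 or fewer. A further 54 of the 289 genes named, among them the members of eIF3 and of the p53 list outside that rule, were chosen after their values were seen or are named only for an overlap or a motif. Promoter windows are RefSeq's, build GRCm38.p6. Some list members are not reported by name here.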

Additional observations from a re-analysis of the deposited data

Results flagged for a closer look

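The effect of the Eif3m siRNA at day 13 differed from that at day 9 by edgeR's interaction test for 36 of the genes named above that were called at day 9. The values are the day 13 minus the day 9 log2 fold change. Signs are those of the estimates, whether or not the gene was called at day 13. In the edgeR fit of day 13 alone G6pc and Slc43a1 were not called (adjusted p = 0.333 and 0.0773). The estimates had opposite signs at the 2 days for Adgre1 (−1.53), Ccr2 (−1.64), Clec7a (−2.04), Col1a1 (−2.34), Col3a1 (−1.70), Cxcl9 (−2.01), Cybb (−1.35), G6pc (−2.64), Gbp2 (−1.24), Hp (−1.06), Hspa1a (−3.37), Hspa1b (−2.78), Igfbp3 (−1.08), Lyve1 (−2.07), Lyz2 (−2.00), Saa3 (−2.56), Slc40a1 (−1.11) and Slc43a1 (1.69). They had the same sign and were further from 0 at day 13 for Bag3 (−1.23), Crp (−0.69), Ddit3 (1.60), Eef1b2 (0.94), Gadd45a (2.21), Gas5 (1.34), Gdf15 (2.28), Mup21 (2.36), Npm1 (0.66), Plk2 (0.91), Rpl4 (0.74), Rplp0 (0.78), Snhg1 (1.83), Sqstm1 (0.61), Trib3 (3.47) and Zfas1 (1.57). They had the same sign and were nearer to 0 at day 13 for Vcam1 (−1.41). At day 13 alone no estimate was made, as the gene did not pass the filter on low counts there, for Itgax (−3.72). Day 13 libraries were shallower, with 7650269 to 9630027 counts. Depth, library set and any difference in doses received cannot be told apart from the day.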

How the results depend on the processing

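Eif3m kept its direction and its call under all 14 alternatives. With the spread estimated over all 12 libraries, 846 genes were called higher and 975 lower. Leaving out 1 library at a time gave 946 to 1367 higher and 1051 to 1473 lower. DESeq2 called 1634 and 1955. The replicate numbers gave no sign of pairing. Deviations of same-numbered libraries correlated at −0.101, −0.155 and 0.116, and those of differently numbered ones at −0.11 to 0.201. With 3 libraries in each group these values cannot exclude a pairing. The fit with the replicate block called 1370 higher and 1476 lower, gave Eif3m −3.23, and did not call 20 of the 218 called genes named above. With it, falls among proteasome subunits numbered 5 in place of 9, rises in growth hormone, IGF and insulin signalling 3 in place of 5, and rises among Kupffer cell markers 0 in place of 3. Of the 218 genes, 145 were called under every alternative that tested them and none reversed. Without control replicate 2, 35 were not called, and over all 12 libraries 41. The call was lost in 5 or more of the 14 alternatives for 31 genes, numbering 11 for Asns and Eif3d, 10 for Eif3h, 8 for Adgre1, Eif2ak4, Eif3f and Hp, 7 for Axin2, Gadd45g, Grb10 and Igfbp3, 6 for C1qa, Crp, Depp1, Ghr, Il1b, Irs2, Krt18, Mthfd2, Orm3, Sdf2l1, Spic, Tbx3 and Timd4 and 5 for Hmgcs1, Mt1, Pmvk, Pnrc2, Slc40a1, Tsku and Upf3a. Of the 70 genes named above that the day 9 fit did not call, some of them named only for an overlap, a motif or their counts, 14 were called under some alternative. Nr1i3 was called in 7 alternatives, Egr1 and Per1 in 6 and Rps12 in 5. Scaling moved the median of all genes from 0.0133 to 2.00e-04 with DESeq2 size factors. On simulated data of this depth, with 200 of 14817 genes changed, 37.3% of genes changed 1.5-fold were recovered. That share may not carry over to the livers, where 3412 genes were called.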
